A study of Homo sapiens with 8 samples.

Results

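The genes described here are the EGF receptor family and its ligands: the receptor genes EGFR, ERBB2 and ERBB3, and the ligand genes EREG, AREG, AREGB, BTC, TGFA, HBEGF and EPGN. They were taken by symbol from deposited gene tables, and all 10 were found among 40693 symbols. The members were chosen with knowledge from their measured levels in these libraries, that is, from the contrast of hairpins and the contrast of cell lines. Their values in those contrasts are therefore given as a description, without p-values.

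RNA sequencing was carried out on SW620 and SW480, established human colorectal adenocarcinoma lines that the labels place at Dukes' types C and B. The data held 3 libraries of SW620 cells expressing a FOXA2 hairpin RNA (shFOXA2), 3 of SW620 cells expressing a control hairpin (shNC), 1 of untreated SW620 and 1 of untreated SW480. Both hairpin groups carried a lentiviral vector with a U6 promoter, puromycin resistance and mCherry, and were stable populations selected with puromycin. The labels of the 3 shFOXA2 libraries share a number that points to 1 FOXA2 hairpin, without saying so. Effects of a hairpin sequence and of lower FOXA2 cannot be told apart in this contrast. FOXA2 encodes a forkhead transcription factor that opens chromatin in endoderm-derived tissues. Whether replicate libraries derive from separate cultures is not stated, so p-values measure only the spread between these libraries.

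The receptors are tyrosine kinases of the cell membrane that pair with each other when a ligand binds. The ligands are made as membrane-bound precursors and are released by metalloproteases, after which they act on the same cell or on its neighbours. EGFR binds all of the ligands listed here, ERBB2 has no known ligand of its own and is a favoured partner, and ERBB3 binds neuregulins and has a weak kinase. In colorectal cancer, amphiregulin (AREG) and epiregulin (EREG) are known as ligands whose level is studied alongside antibodies against EGFR.

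EREG, AREG, BTC and EPGN lie on chromosome 4 in GENCODE v29 on GRCh38. The start of AREG lay 80.0 kb after that of EREG, the start of BTC 429.5 kb after it and the start of EPGN 56.7 kb before it. The other ligand genes and the receptor genes lie on other chromosomes: TGFA on 2, HBEGF on 5, EGFR on 7, ERBB3 on 12 and ERBB2 on 17. RefSeq GRCh38.p14 gave promoter sequence for 8 members, in 10 entries, and ERBB3 and AREGB had none. Because EREG, AREG and BTC are neighbours that were all higher in shFOXA2 cells, the 250 bases before the RefSeq start of each are shown, 5′ to 3′ on the strand of the gene. They span chr4:74364895-74365144 (+) for EREG, chr4:74444886-74445135 (+) for AREG and chr4:74794524-74794773 (-) for BTC. Capitals mark the letters of a searched motif.
EREG: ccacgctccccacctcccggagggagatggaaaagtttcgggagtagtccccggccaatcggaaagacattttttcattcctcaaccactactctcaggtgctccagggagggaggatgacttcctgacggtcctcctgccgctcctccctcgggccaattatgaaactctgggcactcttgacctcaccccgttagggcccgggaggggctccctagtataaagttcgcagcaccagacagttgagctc
AREG: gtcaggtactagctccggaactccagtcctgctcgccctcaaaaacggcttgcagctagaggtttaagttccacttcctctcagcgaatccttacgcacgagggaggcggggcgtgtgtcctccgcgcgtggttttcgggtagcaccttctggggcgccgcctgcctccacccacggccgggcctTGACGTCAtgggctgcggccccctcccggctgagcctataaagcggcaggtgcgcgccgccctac
BTC: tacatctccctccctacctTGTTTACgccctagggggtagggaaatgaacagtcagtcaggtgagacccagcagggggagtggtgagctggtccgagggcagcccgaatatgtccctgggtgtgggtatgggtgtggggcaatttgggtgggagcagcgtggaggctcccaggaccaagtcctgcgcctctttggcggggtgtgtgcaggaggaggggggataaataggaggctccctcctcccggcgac

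The motifs searched on both strands were the forkhead forms TGTTTAC and TGTTTGC, the AP-1 form TGACTCA and the cAMP response element TGACGTCA, which reads the same on both strands. The search window was 300 bases, with 50 bases after the start that are not shown. The AREG window held TGACGTCA, beginning 65 bases before the start, and 1.85% of 35116 RefSeq promoters held it. The BTC window held TGTTTAC, beginning 231 bases before the start, and 3.42% of the promoters held it. The EREG window held none of the 4, and no member's window held TGTTTGC, which was in 3.89% of the promoters. Of the EGFR entries, the one at the start of the gene held none of the motifs. The other, chr7:55109589-55109888 (+), lies within the gene and held TGACTCA at 232 and at 136 bases before its own start, and 4.95% of the promoters held it. A match of letters is a description and does not show binding.

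Total counts were 12068790, 7478411 and 10012844 in shFOXA2 replicates 1 to 3, 13076566, 12941094 and 12133652 in shNC replicates 1 to 3, 95935348 in SW620 and 72323506 in SW480. A limit of 3 counts corresponds to 0.229 to 0.401 CPM, the count scaled to library size, in the hairpin libraries, 0.0313 CPM in SW620 and 0.0415 CPM in SW480. FOXA2, the targeted gene, had 30.3, 29.3 and 22.2 CPM in the shFOXA2 libraries, against 52.5, 49.0 and 51.9 CPM in the shNC libraries. Its log2 fold change was -0.91 (SE 0.09, adjusted p = 6.88e-10 in the edgeR quasi-likelihood test), which is 1.87-fold lower. Between the untreated lines FOXA2 had 7882 counts in SW620 and 319 counts in SW480, 18.0-fold higher in SW620 (95% interval for counting error 16.1 to 20.2). Summed colon epithelial markers reached 8262 to 8697 CPM in shFOXA2 and 8160 to 8914 CPM in shNC, 5947 CPM in SW620 and 6349 CPM in SW480, with CDX1 at 0 in every group but SW620. The 9 fibroblast and endothelial markers found summed to 16.8 to 22.2 CPM in shFOXA2 and 11.5 to 13.4 CPM in shNC, with COL1A2 and COL3A1 at 0 in every group. The 10 leukocyte markers summed to 25.1 to 28.8 CPM in shFOXA2 and 19.1 to 24.3 CPM in shNC, with MS4A1 at 0 in every group. In the untreated lines the fibroblast and endothelial markers summed to 10.3 CPM in SW620 and 4.09 CPM in SW480, and the leukocyte markers to 16.4 CPM in SW620 and 5.76 CPM in SW480. In shFOXA2, both fibroblast genes tested, LUM and COL1A1, and 1 of 4 leukocyte genes, LYZ, were called higher. Of 8 colon epithelial genes tested, CDX2, VIL1, CDH17 and KRT18 were called higher and EPCAM and KRT19 lower, with log2 fold changes from -0.13 for EPCAM and KRT19 to 0.69 for CDX2, so the sum, which is mostly keratins, does not show them. The part of these markers in the values below was not tested. In bulk libraries, fewer cells of a type and less RNA per cell cannot be told apart.

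EREG and AREG were the ligands farthest apart between the hairpin groups. EREG encodes epiregulin, which binds EGFR and ERBB4. It had 35.2, 35.6 and 41.7 CPM in the shFOXA2 libraries, against 7.55, 9.93 and 8.79 CPM in the shNC libraries. All 3 shFOXA2 libraries lay far above all 3 shNC libraries, and the groups did not overlap. EREG averaged 37.5 ± 3.62 CPM in shFOXA2 and 8.76 ± 1.19 CPM in shNC (SD, n = 3 each). The log2 fold change was 2.10 (SE 0.10), or 4.28-fold. AREG encodes amphiregulin, an EGFR ligand of epithelial growth. It had 17.0, 16.6 and 19.6 CPM in the shFOXA2 libraries, against 3.97, 3.77 and 3.83 CPM in the shNC libraries. Again the shFOXA2 libraries were all high, with replicate 3 the highest, and the shNC libraries lay close together below them. The log2 fold change of AREG was 2.20 (SE 0.14), or 4.59-fold.

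AREGB is a second amphiregulin entry of the deposited tables, and RefSeq lists the name as a synonym of AREG. Its values cannot be read as a second gene. Its counts were 195, 119 and 193 in the shFOXA2 libraries, beside 203, 122 and 196 for AREG, and 50, 46 and 45 in the shNC libraries, beside 51, 49 and 47 for AREG. The ratio of AREGB to AREG counts was 0.939 to 0.985 in the 6 hairpin libraries, against 0.665 in untreated SW620 and 0.6 in untreated SW480. With the counts of both entries summed, the log2 fold change was 2.21. Whether reads matching both entries were divided between them or counted for each is not stated in the labels. The level of amphiregulin therefore depends on whether AREGB is added. If reads were counted for each entry, the added level is too high.

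BTC, TGFA, HBEGF and EPGN complete the ligands. BTC encodes betacellulin, which binds EGFR and ERBB4. BTC had 30, 19 and 29 counts in the shFOXA2 libraries, against 12, 14 and 14 counts in the shNC libraries. Scaled, these were 2.51, 2.58 and 2.90 CPM in shFOXA2 and 0.934, 1.08 and 1.14 CPM in shNC. The groups did not overlap, and the log2 fold change was 1.33 (SE 0.30), which is 2.52-fold on few counts. HBEGF encodes heparin-binding EGF-like growth factor. It had 21.3, 20.9 and 19.6 CPM in the shFOXA2 libraries, against 14.2, 16.6 and 14.8 CPM in the shNC libraries. The groups did not overlap, although the log2 fold change of 0.44 (SE 0.10) was much smaller than those of EREG and AREG. TGFA encodes transforming growth factor alpha. It had 50.0, 49.3 and 48.9 CPM in shFOXA2, against 41.6, 46.4 and 46.8 CPM in shNC. The libraries did not overlap, but the log2 fold change of 0.14 (SE 0.07) was not under an adjusted p of 0.05. EPGN, which encodes epigen, had 1, 1 and 2 counts in shFOXA2 and 0, 1 and 0 counts in shNC, too few to compare.

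Among the receptors, ERBB3 and ERBB2 carried most of the receptor RNA in SW620 cells, and EGFR was near the detection limit. EGFR had 24, 14 and 12 counts in the shFOXA2 libraries, against 5, 6 and 2 counts in the shNC libraries. Scaled, these were 2.01, 1.90 and 1.2 CPM in shFOXA2 and 0.389, 0.462 and 0.163 CPM in shNC. Every shFOXA2 library was above every shNC library, but at these counts the log2 fold change of 2.29 has an SE of 0.45. EGFR met the expression filter only through the shFOXA2 libraries, and DESeq2 gave it no adjusted p. ERBB2 had 48.6, 45.2 and 43.7 CPM in the shFOXA2 libraries, against 58.5, 54.8 and 53.9 CPM in the shNC libraries. It was the member that was lower in all 3 shFOXA2 libraries without overlap, with a log2 fold change of -0.28 (SE 0.07), or 1.21-fold lower. ERBB3 had 70.3, 78.5 and 74.6 CPM in shFOXA2, against 77.2, 70.5 and 73.9 CPM in shNC. Its libraries were interleaved, and the log2 fold change was 0.01 (SE 0.06).

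**Figure D1:**
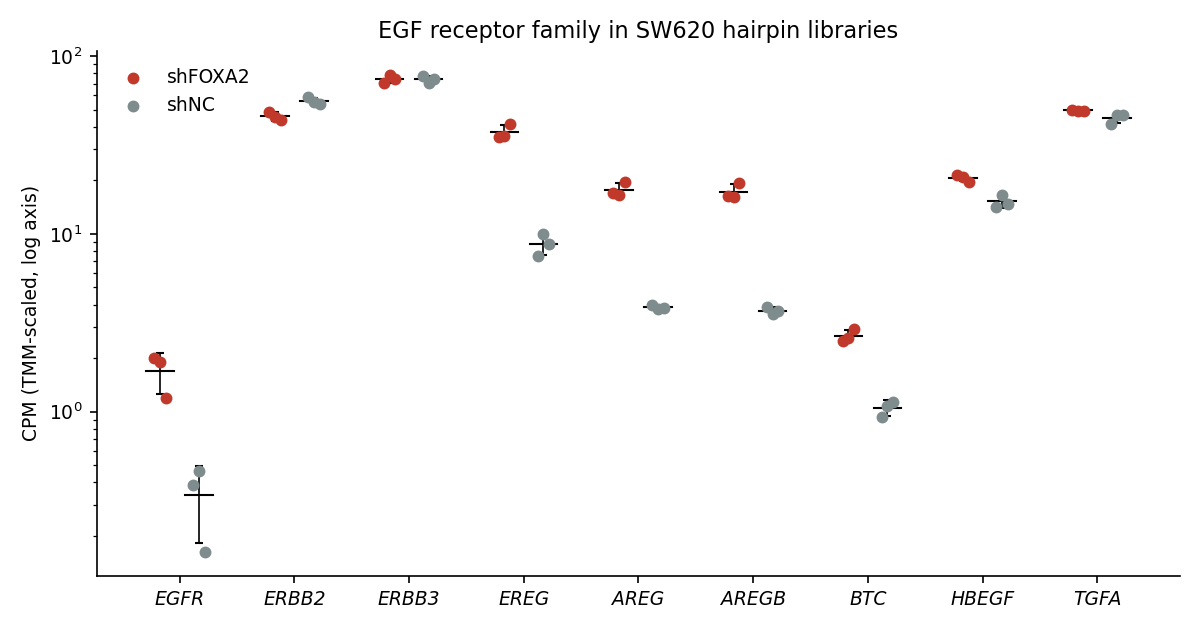
Levels of the members in the hairpin libraries, in CPM on a log axis, with shFOXA2 left of shNC for each gene. Points are libraries, and bars give the mean and SD of 3 libraries. EREG, AREG, AREGB, BTC and EGFR are separated by a wide gap, HBEGF, TGFA and ERBB2 by a small one, and ERBB3 overlaps. EPGN is not drawn because it had at most 2 counts.

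Of the 9 members that met the expression filter, 6 were higher and 1 was lower in shFOXA2 at an adjusted p under 0.05. Over all 16100 genes tested, 39.0% were called, 19.2% higher and 19.8% lower. The 2 others, ERBB3 and TGFA, were not called. The libraries of the groups did not overlap for 8 of the 9, 7 higher and 1 lower, and the same held in either direction for 48.7% of all genes tested. All these counts take AREG and AREGB as separate entries, and they include EGFR, which met the filter only through the shFOXA2 libraries. With AREG and AREGB summed, 5 members were higher and 1 was lower at an adjusted p under 0.05. The members were chosen with this contrast known, so nothing is read from these counts.

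A level per length, the TMM-scaled CPM divided by the length the tables list in kilobases (written RPKM below, computed here and not the authors' column), allows genes to be set side by side. In shFOXA2 cells AREG averaged 10.8 ± 1.01 and TGFA 9.95 ± 0.116 RPKM, followed by HBEGF at 6.83 ± 0.294, EREG at 6.56 ± 0.633 and BTC at 0.946 ± 0.0748 RPKM (SD, n = 3). HBEGF and EREG overlapped across their 3 libraries, at 6.50 to 7.07 RPKM for HBEGF and 6.16 to 7.29 RPKM for EREG. AREG at 10.1 to 11.9 RPKM and TGFA at 9.85 to 10.1 RPKM were not clearly separated. In shNC cells the order was another: TGFA averaged 9.06 ± 0.577, HBEGF 5.04 ± 0.421, AREG 2.34 ± 0.0626, EREG 1.53 ± 0.208 and BTC 0.373 ± 0.0374 RPKM (SD, n = 3), and no neighbours in that order overlapped. Untreated SW620 had the order of shNC, with 10.8 RPKM of TGFA, 3.62 of HBEGF, 1.25 of AREG, 0.753 of EREG and 0.361 RPKM of BTC. In SW480, TGFA stood at 17.6 RPKM, HBEGF at 0.561, AREG at 0.428, BTC at 0.110 and EREG at 0.0444 RPKM. These orders count AREG without AREGB and depend on that choice. With both entries added, amphiregulin stood at 21.2 ± 2.09 RPKM in shFOXA2, at 19.9 to 23.6 and clear of TGFA, and at 4.58 ± 0.171 RPKM in shNC, at 4.44 to 4.77 (SD, n = 3 each), where it overlapped HBEGF at 4.69 to 5.51 RPKM. In the untreated lines the added level was 2.08 RPKM in SW620, below HBEGF, and 0.685 RPKM in SW480, above HBEGF.

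The make-up of the ligand RNA differed accordingly. The 6 ligand genes without AREGB summed to 35.1 ± 1.40 RPKM in shFOXA2, at 34.1 to 36.7, and to 18.3 ± 1.12 RPKM in shNC, at 17.1 to 19.3 (SD, n = 3 each). AREG made up 30.6% ± 1.65 of that sum in shFOXA2 and 12.8% ± 1.08 in shNC, and EREG 18.6% ± 1.12 in shFOXA2 and 8.32% ± 0.646 in shNC (SD, n = 3 each). TGFA made up 28.4% ± 1.36 in shFOXA2 and 49.3% ± 1.21 in shNC, while its own level was nearly alike in both groups. HBEGF made up 19.5% ± 1.56 in shFOXA2 and 27.4% ± 1.05 in shNC. A share is set by the other genes in the sum, so the lower shares of TGFA and HBEGF in shFOXA2 stand beside levels that were not lower. In the untreated lines, TGFA was 64.3% of the sum in SW620 and 93.8% in SW480, and AREG and EREG were 7.41% and 4.47% in SW620, against 2.28% and 0.237% in SW480. With AREGB added, the sum was 45.6 ± 2.43 RPKM in shFOXA2 and 20.6 ± 1.01 RPKM in shNC (SD, n = 3 each). Amphiregulin then made up 46.5% ± 2.02 of it in shFOXA2 and 22.3% ± 1.94 in shNC, and TGFA 21.9% ± 1.36 in shFOXA2 and 44.0% ± 1.19 in shNC (SD, n = 3 each). In the untreated lines amphiregulin was then 11.8% in SW620 and 3.6% in SW480.

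**Figure D2:**
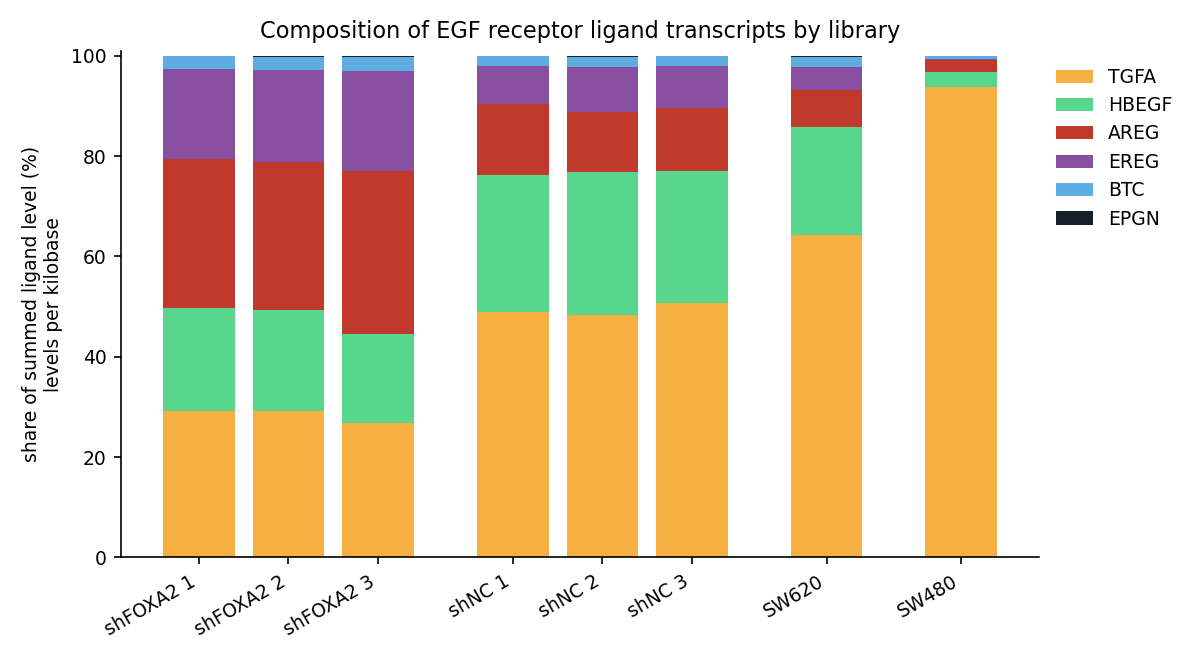
Share of each ligand gene in the summed ligand level per length, in percent, for each library, without AREGB. Amphiregulin and epiregulin take a larger part in the shFOXA2 libraries than in the shNC libraries, and TGFA takes 64.3% in SW620 and 93.8% in SW480.

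The receptor level per length was 13.2 ± 0.379 RPKM in shFOXA2 and 14.0 ± 0.569 RPKM in shNC as the sum of the 3 genes (SD, n = 3 each). ERBB3 averaged 8.61 ± 0.473 RPKM in shFOXA2 and 8.54 ± 0.389 in shNC, ERBB2 4.44 ± 0.244 in shFOXA2 and 5.40 ± 0.239 in shNC, and EGFR 0.131 ± 0.0338 in shFOXA2 and 0.0261 ± 0.0120 RPKM in shNC. ERBB3 was thus the highest receptor gene in every hairpin library. EGFR made up 0.995% ± 0.248 of the receptor sum in shFOXA2 and 0.187% ± 0.0878 in shNC (SD, n = 3 each). It made up 0.0705% of the sum in SW620, against 43.7% in SW480.

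The untreated lines address how the metastasis-derived SW620 differs from SW480. With 1 library of each there is no replicate check and no test, and intervals of 95% cover counting error only. EGFR was the gene farthest apart among the members, with 15 counts in SW620 and 9074 counts in SW480. Its scaled level was 0.154 CPM in SW620 and 128 CPM in SW480, so it was 831-fold higher in SW480 (503 to 1485). ERBB3 had 9215 counts in SW620 and 3985 in SW480 and was 1.68-fold higher in SW620 (1.62 to 1.75). ERBB2 had 5940 counts in SW620 and 4553 in SW480 and was 1.05-fold higher in SW480 (1.01 to 1.09). Per length, EGFR stood at 0.0119 RPKM in SW620 and 9.88 RPKM in SW480, ERBB3 at 10.9 and ERBB2 at 5.91 RPKM in SW620, and ERBB3 at 6.50 and ERBB2 at 6.22 RPKM in SW480. EGFR was therefore the lowest of the 3 receptor genes in SW620 and the highest in SW480.

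Among the ligands, EREG had 419 counts in SW620 and 18 counts in SW480, 17.0-fold higher in SW620 (10.6 to 28.9). HBEGF had 1064 counts in SW620 and 120 in SW480, 6.46-fold higher in SW620 (5.34 to 7.87). BTC had 99 counts in SW620 and 22 in SW480, AREGB 133 in SW620 and 30 in SW480, and AREG 200 in SW620 and 50 in SW480. After scaling, BTC, AREGB and AREG stood at 3.28-fold (2.05 to 5.47), 3.23-fold (2.16 to 4.97) and 2.91-fold (2.13 to 4.06) higher in SW620. TGFA went the other way, with 5227 counts in SW620 and 6191 in SW480, 1.63-fold higher in SW480 (1.57 to 1.69). EPGN had 6 counts in SW620 and 2 in SW480. Of the 9 members that reached 20 counts in either line, the 4-fold rule was met by EREG and HBEGF, with SW620 the higher, and by EGFR, with SW480 the higher. Of 21343 genes with that many counts, 15.4% were at least 4-fold apart, 7.42% higher and 8.0% lower in SW620. EREG and AREG, neighbours on chromosome 4, thus stood at 17.0-fold and 2.91-fold between the lines. Between the hairpin groups their log2 fold changes were 2.10 and 2.20. This is a description of chosen members, with 1 library per line, 18 EREG counts in SW480 and AREGB left out of AREG.

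**Figure D3:**
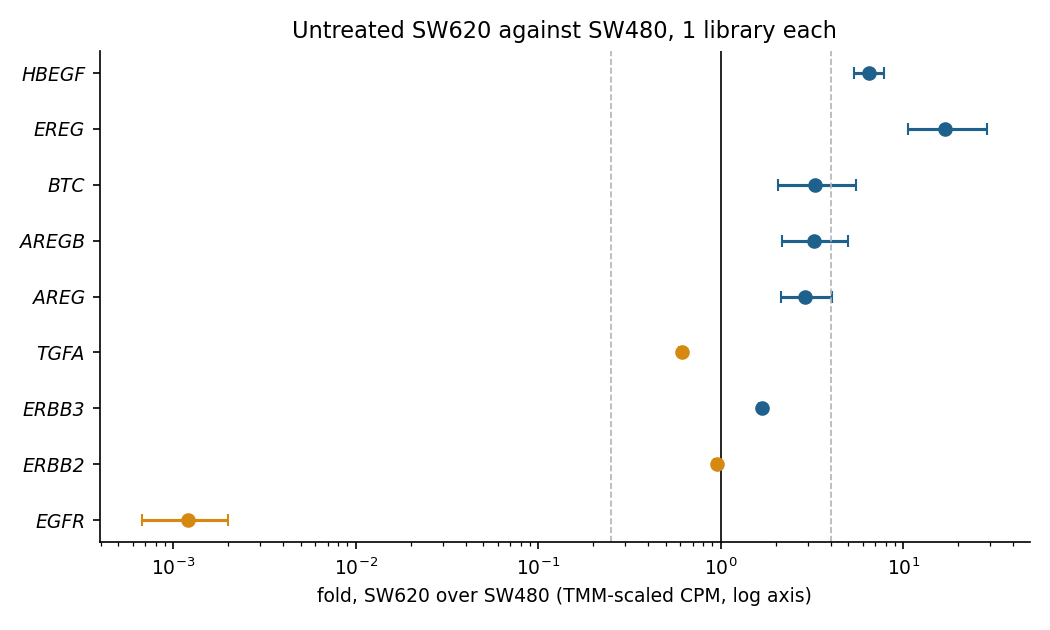
Fold of scaled CPM in untreated SW620 over SW480 on a log axis, 1 library each, with 95% intervals for counting error. Blue marks members higher in SW620 and orange those higher in SW480, and dashed lines mark 4-fold. EGFR lies farthest left, 831-fold higher in SW480, and EREG farthest right, at 17.0-fold, and EPGN, with 6 and 2 counts in SW620 and SW480, is not drawn.

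Untreated and hairpin libraries were scaled separately and differed in depth, and mitochondrial genes took 11.1% of counts in SW620 and 11.7% in SW480, against 4.46% to 4.82% in the hairpin libraries. Side by side, EREG stood at 37.5 CPM in shFOXA2, 8.76 in shNC, 4.31 in SW620 and 0.254 CPM in SW480. EGFR stood at 1.70 CPM in shFOXA2, 0.338 in shNC, 0.154 in SW620 and 128 CPM in SW480. These 2 genes, both higher in shFOXA2 than in shNC, thus lay in opposite directions between the cell lines. No test was made across the separately handled sets.

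Genes with a pattern near that of EREG or EGFR were sought over the 8 libraries by the root mean square difference of centred log2(CPM + 1) values, where 0 is an identical pattern. For EREG the nearest genes outside the family were FGFBP1 at 0.185, COL17A1 at 0.239, AMIGO2 at 0.455, ANXA1 at 0.463 and ITGB7 at 0.474. FGFBP1, a secreted carrier of fibroblast growth factors, had 33.3, 36.4 and 34.8 CPM in shFOXA2, against 9.57, 7.62 and 7.89 CPM in shNC. COL17A1, a collagen of epithelial attachment, had 31.6, 30.2 and 34.2 CPM in shFOXA2, against 5.60, 8.93 and 5.29 CPM in shNC. Both were thus about as far apart between the hairpins as EREG. Of the amphiregulin entries, AREGB lay at 0.433 and AREG at 0.491 from EREG, and HBEGF lay at 0.855 and BTC at 1.119. For EGFR the nearest were TGM2 at 0.3, GJA3 at 0.333, GLI3 at 0.386, IQGAP2 at 0.428 and RUNX2 at 0.436. All 5 were high in SW480, such as TGM2 with 489 CPM in SW480, against 5.97 CPM in SW620, and that library sets most of the measure. The distances use a joint scaling of the 8 libraries, while the CPM printed beside them use the separate scalings. The 8 libraries fall into 4 groups and differ in depth, so this is a ranking only.

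The neighbourhood of EREG on chromosome 4 also holds chemokine genes. Of 38 annotated genes other than members within 1 Mb of EREG, 28 were matched to the tables and 9 were tested in the hairpin libraries. Of these 9, 2 rose, 3 fell and 4 were not called, with a median log2 fold change of -0.04, against 0.01 over all genes. Over all genes tested, 19.2% were higher and 19.8% lower, and with 9 genes the counts move with single libraries. CXCL1, which was not called, had 188 CPM in shNC replicate 1, against 25.9 and 26.9 CPM in shNC replicates 2 and 3. In shFOXA2 it had 48.9, 53.8 and 44.9 CPM (log2 fold change -0.71, SE 1.00). IL8, a neutrophil-attracting chemokine, had 63.4, 63.2 and 59.0 CPM in shFOXA2, against 40.1, 30.9 and 27.3 CPM in shNC (log2 fold change 0.91, SE 0.13, adjusted p = 0.00134 in edgeR). CXCL3, another such chemokine, averaged 17.5 ± 1.01 CPM in shFOXA2 and 12.8 ± 1.59 CPM in shNC (SD, n = 3 each), with an edgeR adjusted p of 0.0011. RASSF6, a RAS-association domain gene, averaged 86.3 ± 2.86 CPM in shFOXA2 and 113 ± 7.32 CPM in shNC (SD, n = 3 each), with an edgeR adjusted p of 2.56e-08. ALB and AC093677.1 were also lower, at adjusted p = 0.0108 and 0.0324 in edgeR, on mean levels of 1.16 and 1.40 CPM in shFOXA2, against 2.33 and 2.41 CPM in shNC. These calls were lost in DESeq2, at adjusted p = 0.0652 for ALB and 0.133 for AC093677.1, and without shFOXA2 replicate 3 (0.0681 and 0.0802) or shNC replicate 2 (0.158 and 0.0963). The call of AC093677.1 was also lost without shFOXA2 replicate 1 (0.0518) or 2 (0.0917), and without shNC replicate 1 the rising neighbours numbered 4. Between the cell lines, 13 neighbours had at least 20 counts, and of these 6 were at least 4-fold higher and 2 at least 4-fold lower in SW620. Over all 21343 genes with that many counts, 7.42% were higher and 8.0% lower in SW620 by this rule. The 6 ran from 5.95-fold for CXCL3 to 699-fold for RASSF6. The 2 were PARM1 and RP11-44F21.3, 39.9-fold and 50.8-fold higher in SW480.

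**Figure D4:**
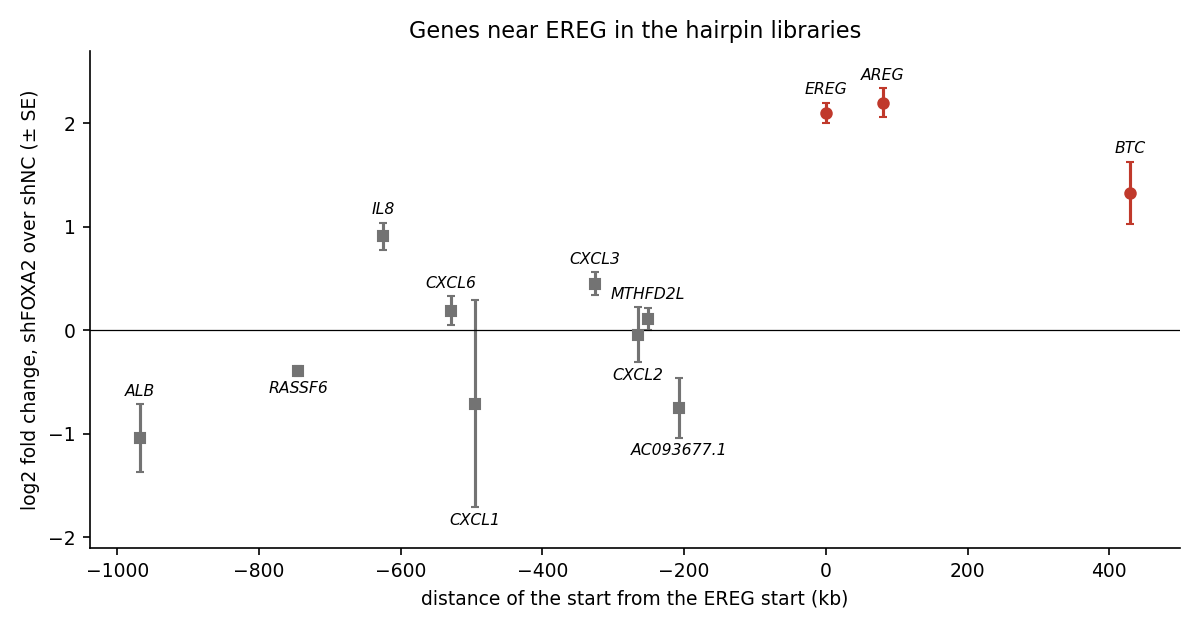
Log2 fold change (± SE) of shFOXA2 over shNC for tested genes near EREG, against the distance of each start from that of EREG in kb. Red circles are EREG, AREG and BTC, at 2.10, 2.20 and 1.33, and grey squares are the 9 other genes, all below 1.

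Other genes of the pathway were described from lists of 102 genes, of which 93 were tested in the hairpin libraries. Of these, 39 rose (41.9%), 20 fell (21.5%) and 34 were not called, with a median log2 fold change of 0.10, against 0.01 over all genes. Pathway genes were more abundant than the rest, at a median of 64.4 CPM, against 23.6 CPM over all genes, and abundant genes were called more often. Among genes with a mean of at least 10 CPM, 44.0% of 84 pathway genes rose and 23.8% fell, beside 24.4% and 25.4% of 10687 genes. Over all 16100 genes tested, 19.2% rose and 19.8% fell. The lists were chosen with earlier results of these data known, and no test of a list was made. Counts per list below are a description, to be set beside these shares.

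Genes of ligand release were mostly higher or not called: of 16 tested, 8 rose, 1 fell and 7 were not called, with a median log2 fold change of 0.16. ADAM19, a membrane metalloprotease, averaged 94.6 ± 2.96 CPM in shFOXA2 and 40.5 ± 0.671 CPM in shNC (SD, n = 3 each; log2 fold change 1.22, SE 0.06, edgeR adjusted p = 2.62e-21). ADAM9, of the same family, averaged 129 ± 3.36 CPM in shFOXA2 and 79.3 ± 1.01 CPM in shNC, with an edgeR adjusted p of 4.83e-16. TIMP3, an inhibitor of such proteases, stood at 2.12 ± 0.531 CPM in shFOXA2 and 0.551 ± 0.0821 CPM in shNC. It is among the 8, but it met the expression filter only through the shFOXA2 libraries, so nothing is read from its call. The gene that fell was RHBDF2, a rhomboid-like protein that carries ADAM17 to the cell surface, at 38.2 ± 1.14 CPM in shFOXA2 and 49.9 ± 1.74 CPM in shNC (edgeR adjusted p = 1.22e-05). ADAM17 itself and RHBDF1, also among the 8, rose, at log2 fold changes of 0.39 and 0.46 (edgeR adjusted p = 0.00032 and 0.000244). The list thus holds proteases that rose, and inhibitors as well. TIMP2 rose, at 102 ± 6.73 CPM in shFOXA2 and 85.7 ± 1.02 CPM in shNC (edgeR adjusted p = 8.21e-05). TIMP1 was not called, and TIMP3 was higher in shFOXA2 at a low level.

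Among 18 genes that limit or take up the receptors, 8 rose, 6 fell and 4 were not called, with a median log2 fold change of 0.11. The phosphatases PTPN1 and PTPRJ, which act on EGFR, fell: PTPN1 averaged 55.1 ± 2.51 CPM in shFOXA2 and 83.1 ± 2.49 CPM in shNC, and PTPRJ 16.6 ± 1.14 CPM in shFOXA2 and 29 ± 2.36 CPM in shNC (edgeR adjusted p = 1.15e-11 and 2.14e-09). HGS, which sorts receptors at the endosome, fell as well, at a log2 fold change of -0.50 (edgeR adjusted p = 3.27e-10). CD2AP, an adaptor in receptor uptake, rose, at 0.40 on the log2 scale (edgeR adjusted p = 1.39e-07). The phosphatase gene PTPRK rose too, at a log2 fold change of 0.45 (edgeR adjusted p = 6.27e-06). So did LRIG1 and ERRFI1, at 0.41 and 0.25 (edgeR adjusted p = 1.57e-05 and 0.000753), so the list went in both directions.

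Of 20 adaptor and RAS-ERK core genes, 5 rose, 3 fell and 12 were not called, with a median log2 fold change of 0.03. NRAS and BRAF rose by log2 fold changes of 0.42 and 0.37 (edgeR adjusted p = 4.16e-10 and 1.26e-06). GRB7, an adaptor that binds ERBB2, and HRAS fell, at -0.59 and -0.45 (edgeR adjusted p = 8.40e-06 and 1.71e-05). Of 19 PI3K and AKT genes, 7 rose, 8 fell and 4 were not called, with a median of -0.07. PHLPP2, a phosphatase that acts on AKT, rose by a log2 fold change of 0.74, and MTOR by 0.30 (edgeR adjusted p = 2.08e-11 and 1.06e-06). AKT2 and AKT1 fell, at -0.31 and -0.30 (edgeR adjusted p = 3.86e-07 and 1.68e-06).

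Of 18 genes known to respond to ERK, 11 rose, 2 fell and 5 were not called, with a median log2 fold change of 0.23. DUSP5, a phosphatase that acts on ERK, averaged 57.3 ± 1.60 CPM in shFOXA2 and 24.1 ± 0.965 CPM in shNC, and FOSL1, an AP-1 transcription factor, 168 ± 14.4 CPM in shFOXA2 and 80.9 ± 0.869 CPM in shNC (SD, n = 3 each; edgeR adjusted p = 3.68e-18 and 4.64e-19). The 2 that fell were ETV5, an ETS transcription factor, and CCND1, which encodes cyclin D1, at log2 fold changes of -0.61 and -0.52 (edgeR adjusted p = 3.80e-14 and 2.77e-13). Of the other EGF family genes, NRG2 and NRG4, which encode neuregulins, were tested and not called, at log2 fold changes of -0.28 and -0.17. ERBB4, the remaining receptor, stood at 0.502, 0.407 and 0.501 CPM in shFOXA2 and 0.234, 0 and 0 CPM in shNC and was not tested.

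**Figure D5:**
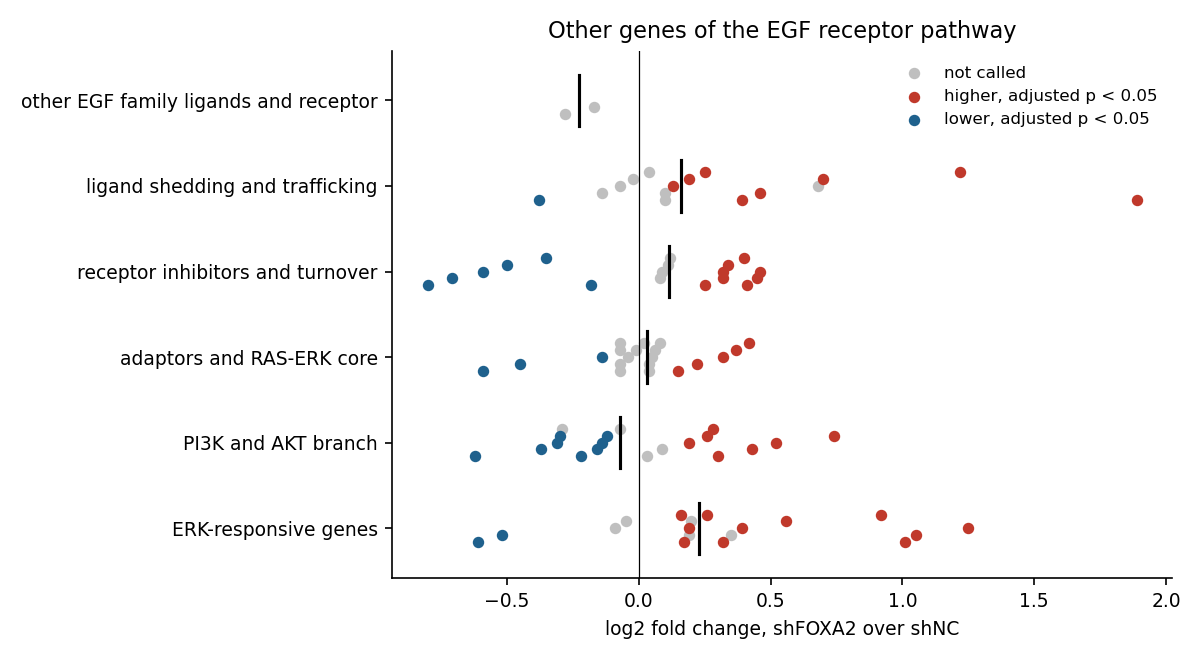
Log2 fold change of shFOXA2 over shNC for each tested pathway gene, by list. Red points rose and blue points fell at an adjusted p under 0.05, grey points were not called, and the black bar is the median of a list, the highest being 0.23 for ERK-responsive genes.

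Between the untreated lines, 97 pathway genes had at least 20 counts, and 6 were at least 4-fold higher and 6 at least 4-fold lower in SW620. That is 12.4% of them, below the 15.4% of all genes with that many counts. ERBB4 had 45 counts in SW620 and 0 in SW480, at least 10.9-fold higher against a limit of 3 counts. Of the release genes, the protease gene ADAM8 was 4.82-fold higher in SW620. TIMP3, the rhomboid protease gene RHBDL2 and ADAM19 were 17.4-fold, 6.77-fold and 4.16-fold higher in SW480. CBLB, a ubiquitin ligase that marks receptors for breakdown, was 4.89-fold higher in SW620, and LRIG3, of a receptor-binding family, had 0 counts in SW620 and 35 in SW480, at least 16.0-fold higher in SW480. Of the ERK-responsive genes, DUSP4, PHLDA1 and SPRY2 were 5.81-fold, 4.78-fold and 4.63-fold higher in SW620. FOS and CCND1 were 7.36-fold and 4.16-fold higher in SW480.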

How the data were processed

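RNA sequencing of 8 libraries was read from 1 deposited table per library. Each table gives, for 42713 rows, raw counts, a length and RPKM, per the values; the authors' RPKM equals the count scaled by length and table total within 1e-04 for 100% of genes above 20 counts. The submitters' processing notes name HOMER and hg19 without a role, while for the aligner, the counter and the annotation no name was given in the sources used here, nor whether the strand of the directional kit was used. The counts were analysed here, and the deposited RPKM served only for that check.

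The 10 members, the pathway lists and the tests were chosen with earlier results of these data known. Of the symbols, 256 were repeated, none of them a member, and 1 entry per symbol, that of most counts over the 8 tables, was used. Hairpin libraries were compared, 3 against 3, with edgeR 4.0.16 in R 4.3.3 (quasi-likelihood, robust, two-sided, TMM, default expression filter, Benjamini-Hochberg over all genes at 0.05), and the SE is the size of the log2 fold change over the square root of F. Untreated libraries were scaled with TMM apart from these and compared as ratios with exact 95% intervals. For the ranking by pattern only, all 8 libraries were scaled together with TMM. Intervals and limits cover counting error only. The chi-square per degree of freedom between replicates was 1.66 to 4.61, highest with replicate 1 of each group. Named genes were all members, FOXA2, up to 4 called genes per list by p, up to 3 per list at least 4-fold apart between the lines, up to 5 called neighbours, and 5 genes nearest EREG and EGFR. Some further genes of the lists and the neighbour CXCL1 were named beside these because they bear on how a count reads.

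Alternatives covered DESeq2 1.42.0 (size factors, Wald test), total counts, no filter, a replicate block, libraries left out, summed repeated symbols, AREG with AREGB, and 1 CPM added. Fits were tested on simulated data. Plots used Python 3.11.15 and matplotlib 3.10.9. GENCODE v29 and RefSeq are on GRCh38, another build than hg19, and gave names, positions and sequences only.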

Additional observations from a re-analysis of the deposited data

How the results depend on the processing

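The numbers of genes called in the hairpin libraries stayed within 1.5 times of 6280 in each alternative, between 4901 (DESeq2 Wald test) and 6276 among those with all libraries and 16100 genes, and between 5299 and 5872 without 1 library. Pathway calls ran from 33 to 39 higher and 17 to 22 lower. The members' values are a description. Without 1 library each, the log2 fold change ran from 1.97 to 2.56 for EGFR, 1.99 to 2.20 for EREG, 2.11 to 2.24 for AREG and 1.24 to 1.39 for BTC. ERBB3 changed sign around 0, at -0.02 without a filter. Neighbours of EREG that fell numbered 1 in DESeq2, and without 1 library each those that rose ran from 2 to 4 and those that fell from 1 to 3. The cause was not tested.

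With 1 CPM added, the log2 ratios of SW620 over SW480 were nearer 0, by construction: EGFR -6.80, EREG 2.08, AREG 0.84, AREGB 0.73, BTC 0.62 and HBEGF 2.15. Replicate numbers did not pair the hairpin libraries (correlations of deviations 0.001, -0.049 and -0.001 for numbers 1 to 3), and a replicate block gave 6139 called genes and left the pathway counts at 38 higher and 18 lower.

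EGFR and EPGN in SW620 cells, and BTC in the hairpin libraries, rest on few counts. SW620 and SW480 have 1 library each.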
